A study of Homo sapiens with 36 samples.

Results

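The HOX cluster genes are the homeobox transcription factor genes of the 4 mammalian HOX clusters. They were chosen by name: every protein-coding gene called HOXA, HOXB, HOXC or HOXD plus a number in the GENCODE v29 annotation. That gave 39 genes of the 58219 listed, and all 39 were present in each of the 6 count tables. RNA and ribosome footprints were counted in WiT49, a single established line from an anaplastic Wilms tumor, a kidney cancer of childhood. One arm received 2 nM actinomycin D (actD), a DNA intercalator that blocks transcription and is used against this tumor, and the other its vehicle, dimethyl sulfoxide (DMSO). Exposure lasted 6 h, 72 h or 2 weeks, the last as 2 cycles of 7 days in which 3 days of drug or vehicle were followed by 4 days of medium with no additive. All 12 groups shared the line and the growth medium, and each held 3 libraries. The labels do not say whether the replicates were separate cultures, so a p-value here measures only the spread between these libraries, which may be technical.

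For RNA at 2 weeks, each library's title names one treatment and its library name the other. The groups follow the library name here and are called named actd and named dmso, and every sign of that comparison turns if the titles are right. RNA libraries held 40221994 to 69240041 counts, and footprint libraries 152556 to 1281039. The HOX genes took 575 to 967 per 1000000 protein-coding RNA counts. RNA of the kidney-tumor genes IGF2 (1020.2 to 2359 CPM, counts per 1000000 after TMM scaling) and MYCN (44.3 to 159 CPM) was abundant in every RNA library. Of 10 blastema and nephron progenitor markers, 5 reached 1 CPM in all 6 libraries of each table, and SIX2, CITED1, EYA1, SALL1 and PAX2 did not. No leukocyte marker reached that level. The muscle factors MYOD1 and MYOG were listed at 0 throughout, while the third muscle marker, DES, reached it in every table (6.27 to 10.7 CPM). Of 6 epithelium markers 4, 3 and 4 reached it at 6 h, 72 h and 2 weeks, with sums of 1000 to 6876 CPM. Of 3 endothelium markers 0, 0 and 1 did, with sums of 10.9 to 18.3 CPM at 2 weeks. The stroma marker COL1A2 was also listed at 0, beside abundant COL1A1 and VIM. Summed over their lists at 72 h, blastema markers took 1548 to 1739.8 CPM with actD and 1599 to 1900.1 CPM with DMSO, and stroma markers 670.2 to 1013 CPM with actD and 617 to 730.3 CPM with DMSO.

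HOX genes carry positional identity. In the embryo they are switched on in the order in which they lie in their cluster, so that low-numbered (anterior) genes act in the hindbrain and neck and high-numbered (posterior) genes in the lower trunk, limbs and urogenital tract. Genes of the same number in different clusters are paralogs with overlapping functions. HOX11 paralogs are needed for the metanephric kidney to form, Polycomb complexes keep HOX genes silent, and Trithorax and MLL complexes keep them active. HOX proteins bind DNA together with PBX and MEIS cofactors. Adult cells and tumors often keep the HOX pattern of their origin.

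HOX RNA in WiT49 came mostly from the posterior genes. A gene counted as expressed where its RNA was at 1 CPM or more in all 6 libraries of a table, both treatments together. By that rule 25 HOX genes were expressed at 6 h, 22 at 72 h and 25 at 2 weeks, 19 of them in every table and 28 in at least 1. Levels between genes are given per kilobase of merged exons. On that scale the 16 genes of groups 9 to 13 held 83.3%, 74.6% and 80.0% of all HOX RNA at 6 h, 72 h and 2 weeks. The 8 genes of groups 1 to 3 held 4.48%, 5.82% and 3.92%, and the 15 genes of groups 4 to 8 held 12.3%, 19.6% and 16.1%. By cluster, HOXA held 57.7%, 46.7% and 30.0%, HOXB 26.3%, 32.3% and 51.8%, HOXC 12.8%, 18% and 15.2%, and HOXD 3.27%, 2.92% and 2.97%. The clusters lie on chromosome 7 (HOXA, minus strand), 17 (HOXB, chr17:48528526-48729178, minus), 12 (HOXC, chr12:53938765-54056030, plus) and 2 (HOXD, chr2:176092891-176190907, plus), build GRCh38.

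HOXA13, which patterns the distal limb and the genital tubercle, and HOXB13, a factor of the prostate and hindgut lineage, were among the most abundant members in each table. HOXA13 RNA stood at 38.3 ± 3.13, 24.1 ± 4.1 and 19.1 ± 1.59 CPM per kb at 6 h, 72 h and 2 weeks (mean ± SD over all libraries of a table, n = 6). HOXB13 stood at 18.2 ± 3.11, 11.9 ± 2.02 and 38.8 ± 3.56 CPM per kb. Among all 19778 protein-coding genes on the same scale, HOXA13 was at percentiles 96.1, 94.3 and 93.8 and HOXB13 at 89.9, 87.1 and 97.6. At the other end, HOXD12 was listed at 0 in all 18 RNA libraries, and HOXB1, a hindbrain gene, was listed at 0 in all but 1. A count of 0 allows up to 3 counts, which is 0.0434 to 0.0801 CPM in the 72 h libraries, and covers counting error only.

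The starts of an abundant posterior gene and of the one listed at 0 are shown to let their base composition be compared. Shown are the 120 bases before each GENCODE start, 5′ to 3′ on the gene's strand, with every CpG dinucleotide in capitals. They come from RefSeq (GRCh38.p14) and overlap no GENCODE exon. HOXA13 is read at chr7:27200107-27200226 (minus strand) and HOXD12 at chr2:176099610-176099729 (plus strand).
HOXA13: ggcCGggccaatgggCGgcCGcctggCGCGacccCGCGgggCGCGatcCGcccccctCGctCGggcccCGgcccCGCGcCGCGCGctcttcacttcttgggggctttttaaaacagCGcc
HOXD12: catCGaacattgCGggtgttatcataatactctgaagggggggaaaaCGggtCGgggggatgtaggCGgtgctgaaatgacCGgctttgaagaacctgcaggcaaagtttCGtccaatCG
The HOXA13 stretch held 19 CpG and the HOXD12 stretch 8. Over the 250 bases before the RefSeq start, which for both lies inside the GENCODE gene, the counts were 40 and 16. Both exceed the median of 11 CpG over the 35116 promoters in the RefSeq table, counted in the same 250 bases. The motif CG reads the same on both strands. The table held 27 promoters of 20 HOX genes, with a median of 19 CpG, and 70.4% of these against 48.5% of all promoters exceeded 11. The 2 genes shown do not stand for the rest. Genes expressed in no RNA table ran from 7 CpG (HOXB1) to 31 (HOXD1). Of the abundant genes HOXA11 had 11 CpG, and the 2 HOXA10 promoters had 24 and 19. A CpG count is a description of the letters and says nothing of methylation, which was not measured.

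**Figure D1:**
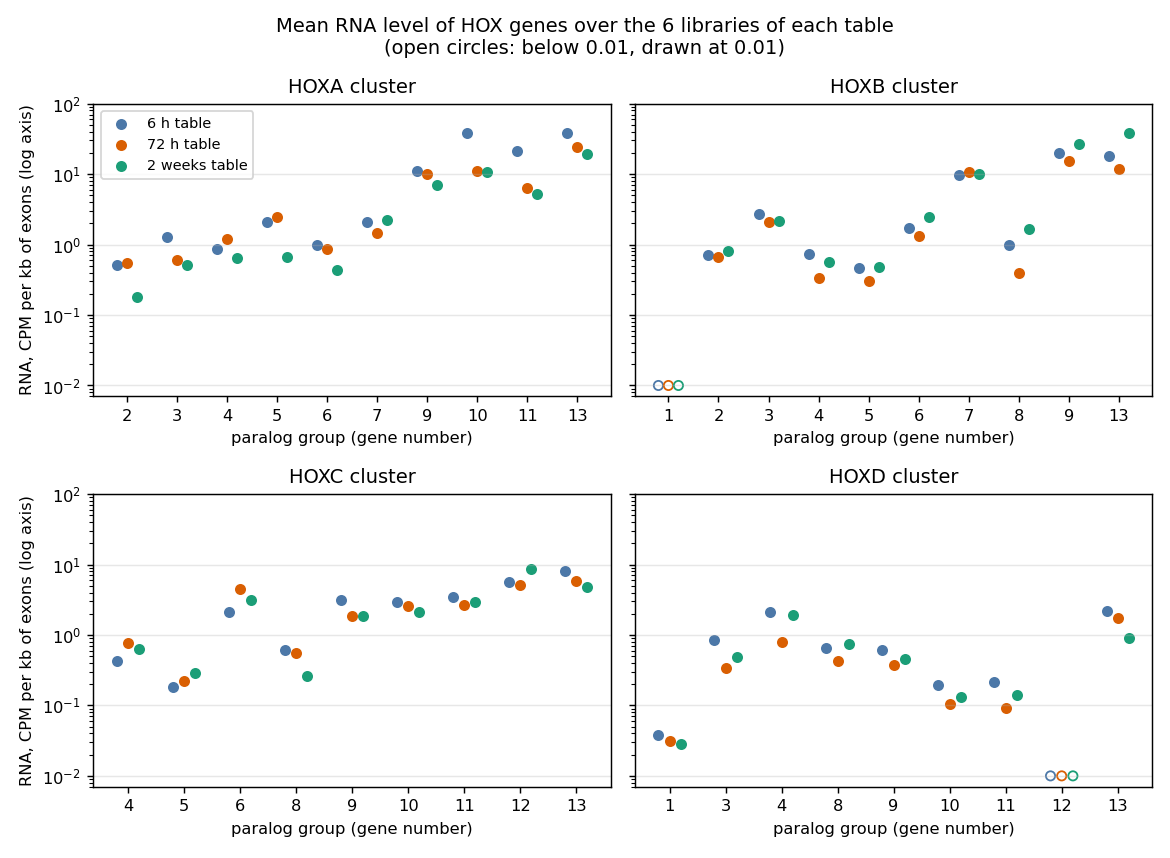
RNA level of 38 HOX genes by cluster and paralog group, as CPM per kb of exons on a log axis, each point the mean of the 6 libraries of a table (blue 6 h, orange 72 h, green 2 weeks; open circles lie below 0.01 and are drawn there). In HOXA, HOXB and HOXC the points climb toward the high numbers. HOXC points reach 8.63 at most (HOXC12 at 2 weeks), and no HOXD gene exceeds the 2.22 of HOXD13 at 6 h.

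HOXA10 and HOXA11, which pattern the uterus and, for HOXA11, the kidney, stood out at 6 h. HOXA10 was at 38.7 CPM per kb at 6 h, 11.3 at 72 h and 10.6 at 2 weeks. HOXA11 was at 21.5, 6.27 and 5.18 CPM per kb. HOXB13 had the opposite place, at its highest in the 2-week table. Each time point has its own table, so the time point, culture, extraction kit and sequencing cannot be told apart in these differences. Spearman's rho of the 39 levels between 2 tables was 0.957 (6 h and 72 h), 0.936 (6 h and 2 weeks) and 0.932 (72 h and 2 weeks), over genes that share annotation and base composition. In the order of levels most neighbours did not differ beyond the spread of their libraries. At 6 h HOXA10 and HOXA13 overlapped at the top and both lay clear of HOXA11, while at 72 h the ranges of all neighbours overlapped. At 2 weeks HOXB13, HOXB9 and HOXA13 were each clear of the next gene.

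The group 9 genes differed in level, with HOXB9 and HOXA9 high. HOXC9 stood at 3.09, 1.84 and 1.86 CPM per kb at 6 h, 72 h and 2 weeks, and HOXD9 at 0.609, 0.369 and 0.458. HOXB9 stood at 19.9, 15.4 and 27.1 CPM per kb, and HOXA9, a factor of blood progenitors and leukemia, at 11.1, 10.1 and 6.92. HOXB7 was the highest member of groups 1 to 8 in every table, at 9.56, 10.6 and 9.93. HOXA2 was low in every table, at 0.518, 0.550 and 0.180. In HOXD only HOXD13, the digit gene, passed the rule in every table, at 2.22, 1.74 and 0.892. Of the HOX11 paralogs, HOXC11 was at 3.49, 2.64 and 2.98, and HOXD11 at 0.214, 0.0917 and 0.141. The 11 genes that passed in no table were HOXA2, HOXA6, HOXB1, HOXB5, HOXC5, HOXC8, HOXD1, HOXD9, HOXD10, HOXD11 and HOXD12.

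Some of these counts are uncertain because transcripts are shared. Of the 28-base windows in exons of HOXD4 and HOXD3, 78.4% and 62.0% also occur in the overlapping gene AC009336.2, and 59.4% of those of HOXC5 in a second HOXC5 entry. The share was 29.6% for HOXA4 with AC004080.6 and 20.7% for HOXD11 with HOXD10. On the other strand HOXA-AS3 covers 62.5% of the exons of HOXA7 and 39.3% of HOXA6, and HOXA11-AS 31.1% of HOXA11. The labels name a stranded RNA kit, but the use of strand in the counting is not given in the sources used here, so sense and antisense reads cannot be told apart.

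After 6 h of actD no HOX gene was called, and the arms overlapped in HOXA10, HOXA11, HOXA13, HOXB9 and HOXB13, the most abundant members. Genes with a positive sign outnumbered the rest. Of the 39 genes, 36 passed the filter on low counts and 28 of these had a positive log2 fold change (actD minus DMSO), beside 53% of all 22669 genes tested. The median of the 36 was 0.14, beside 0.02 over all genes. The quasi-likelihood test of edgeR (Benjamini-Hochberg adjusted over all genes) called 0 HOX genes and 0 genes in all (0%), and DESeq2 called 0 HOX genes and 197 genes in all. At an unadjusted p under 0.05 stood 7 HOX genes, each with a positive sign, beside 3.67% of all genes in that direction and 4.54% in the other. The 7 became 4 without actD replicate 2, actD replicate 3 or DMSO replicate 1, 3 without DMSO replicate 2, and 3 with the replicate number as a block or in a single fit over all RNA libraries. HOXB1, HOXD1 and HOXD12 were too low to test in any table, and HOXD11 also at 72 h.

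Values are given in the order of replicates 1, 2 and 3. HOXC8, a thoracic gene, was at 1.59, 1.62 and 1.41 CPM with actD and 0.927, 0.659 and 0.654 CPM with DMSO at 6 h. HOXD9, a lumbar and limb gene, was at 1.3, 1.65 and 1.53 CPM with actD and 0.757, 0.894 and 0.701 CPM with DMSO. All actD libraries of both genes lay above all DMSO libraries, with log2 fold changes of 1.04 ± 0.25 and 0.93 ± 0.24 (SE) and adjusted p of 0.38 and 0.43 (edgeR). HOXC9 was at 5.52, 6.27 and 6.42 CPM with actD and 4.08, 4.49 and 4.32 CPM with DMSO, and HOXD13 at 5.84, 4.46 and 7.21 CPM with actD and 4.14, 4.23 and 3.9 CPM with DMSO. Their arms did not overlap either, at 0.50 ± 0.15 and 0.51 ± 0.20 (adjusted p 0.49 and 0.59, edgeR), and HOXD13 had 0.33 without actD replicate 3. The neck gene HOXD3 was at 4.02, 3.86 and 3.0 CPM with actD and 2.07, 2.01 and 2.96 CPM with DMSO. Its paralog HOXA3, needed for the thymus and parathyroid, was at 6.33, 5.55 and 6.47 CPM with actD and 4.36, 4.99 and 4.94 CPM with DMSO. HOXD3 and HOXA3 had no overlap, with log2 fold changes of 0.63 ± 0.23 and 0.36 ± 0.15 and adjusted p of 0.57 and 0.60 (edgeR). Of the 36 genes, 8 had every actD library above every DMSO library, beside 7.66% of all genes, and none had the reverse, beside 8.17%.

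The posterior HOXA genes were abundant in both arms at 6 h. HOXA13 stood at 199, 181 and 186 CPM with actD and 213, 214 and 177 CPM with DMSO. HOXA10 stood at 119, 132 and 133 CPM with actD and 194, 176 and 105 CPM with DMSO. HOXA11 stood at 47.3, 51.2 and 51.3 CPM with actD and 59, 49.8 and 38.6 CPM with DMSO. DMSO replicate 3 was the lowest library for all 3 genes, and the arms overlapped. HOXA9 was at 34.3, 33.2 and 31.1 CPM with actD and 33.7, 33.1 and 35.9 CPM with DMSO, HOXA7 at 4.15, 5.47 and 6.52 CPM with actD and 4.99, 5.54 and 3.88 CPM with DMSO. HOXA5, which the lung and trachea need, was at 4.36, 3.89 and 3.15 CPM with actD and 3.17, 3.53 and 3.58 CPM with DMSO, and HOXA4 at 1.48, 1.78 and 1.69 CPM with actD and 1.85, 1.99 and 0.265 CPM with DMSO. Arms overlapped in each of these 4 genes, and HOXA4 had a single low library, DMSO replicate 3.

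In HOXB, HOXB13 stood at 57.7, 64.5 and 83.8 CPM with actD and 56.9, 53.9 and 62 CPM with DMSO at 6 h. HOXB9 stood at 49.5, 53.1 and 57.9 CPM with actD and 46.9, 49.1 and 51.5 CPM with DMSO. HOXB7 stood at 13.9, 14.5 and 19.9 CPM with actD and 13, 13.4 and 12.9 CPM with DMSO. HOXB7 was the one of these with no overlap, and actD replicate 3 was the highest library of all 3 genes. HOXB3 was at 20.9, 19.1 and 18.5 CPM with actD and 16.8, 20.7 and 25.1 CPM with DMSO, and HOXB4, a gene of blood stem cells, at 3.05, 2.43 and 2.66 CPM with actD and 2.12, 2.82 and 3.65 CPM with DMSO. HOXB6 was at 4.49, 4.43 and 4.84 CPM with actD and 4.11, 4.75 and 4.19 CPM with DMSO, and HOXB8 at 2.22, 1.82 and 2.23 CPM with actD and 1.88, 1.98 and 2.17 CPM with DMSO. HOXB2 was at 1.75, 1.79 and 1.69 CPM with actD and 1.48, 1.65 and 1.59 CPM with DMSO. Only HOXB2 of these 5 had no overlap, with a log2 fold change of 0.15 ± 0.20 (adjusted p 0.90, edgeR).

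In HOXC, the hair follicle gene HOXC13 was at 18.5, 23 and 25.3 CPM with actD and 16.3, 19.6 and 16.8 CPM with DMSO at 6 h. HOXC12 was at 16.8, 18.8 and 24.1 CPM with actD and 17.9, 18.3 and 18.6 CPM with DMSO, and HOXC11 at 11.6, 12 and 11.1 CPM with actD and 10.4, 11.9 and 11.4 CPM with DMSO. HOXC10 was at 6.44, 6.6 and 10.1 CPM with actD and 5.24, 6.67 and 5.94 CPM with DMSO. The arms overlapped in all 4, with actD replicate 3 the highest library for HOXC13, HOXC12 and HOXC10. HOXC6 was at 8.09, 8.36 and 7.14 CPM with actD and 8.49, 7.28 and 5.87 CPM with DMSO, and HOXC4 at 0.908, 0.920 and 1.82 CPM with actD and 1.13, 1.08 and 1.2 CPM with DMSO. In HOXD, HOXD4 was at 4.09, 2.92 and 2.06 CPM with actD and 3.1, 2.71 and 3.44 CPM with DMSO, and HOXD8 at 1.15, 1.65 and 3.05 CPM with actD and 2.46, 1.1 and 0.935 CPM with DMSO. Arms overlapped for these 4 as well. All 9 HOXC genes tested had a positive log2 fold change at 6 h, from 0.05 to 1.04.

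At 72 h most HOX genes tested had a positive log2 fold change in RNA, and none was called by edgeR. Of 35 genes tested, 31 had a positive log2 fold change, beside 51.4% of all 21195 genes tested, and the median was 0.64 beside 0.02 over all genes. All 9 tested HOXB, all 9 HOXC and all 6 HOXD genes were on the positive side, and the 4 negative ones were HOXA3, HOXA10, HOXA11 and HOXA13. HOXA3, at -0.02, lay near 0 and ran from -0.90 (without actD replicate 2) to 0.31 (without actD replicate 1). Medians were 0.90 in groups 1 to 3 (6 tested), 0.74 in groups 4 to 8 (15 tested, all positive) and 0.30 in groups 9 to 13 (14 tested, 11 positive), and these groups were not tested against each other. No member passed the threshold: edgeR called 0 HOX genes and 1 gene in all (0.00472%), with 0.257 as the smallest adjusted p of a HOX gene. At an unadjusted p under 0.05 stood 13 HOX genes, all positive, beside 5.27% of all genes in that direction and 7.78% in the other. The 13 became 6 without actD replicate 1 and 8 without DMSO replicate 1. DESeq2 called 4 HOX genes (HOXA2, HOXA5, HOXB3 and HOXC13), beside 2.87% of all genes. A single edgeR fit over all 18 RNA libraries called 5 (HOXA5, HOXB3, HOXC6, HOXC11 and HOXC13), beside 4.89% of all genes. Without both replicate 3 libraries, left out after the values were seen, in part because HOXD4 was at 0 in both, 14 genes stood under 0.05 and the median was 0.65.

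**Figure D2:**
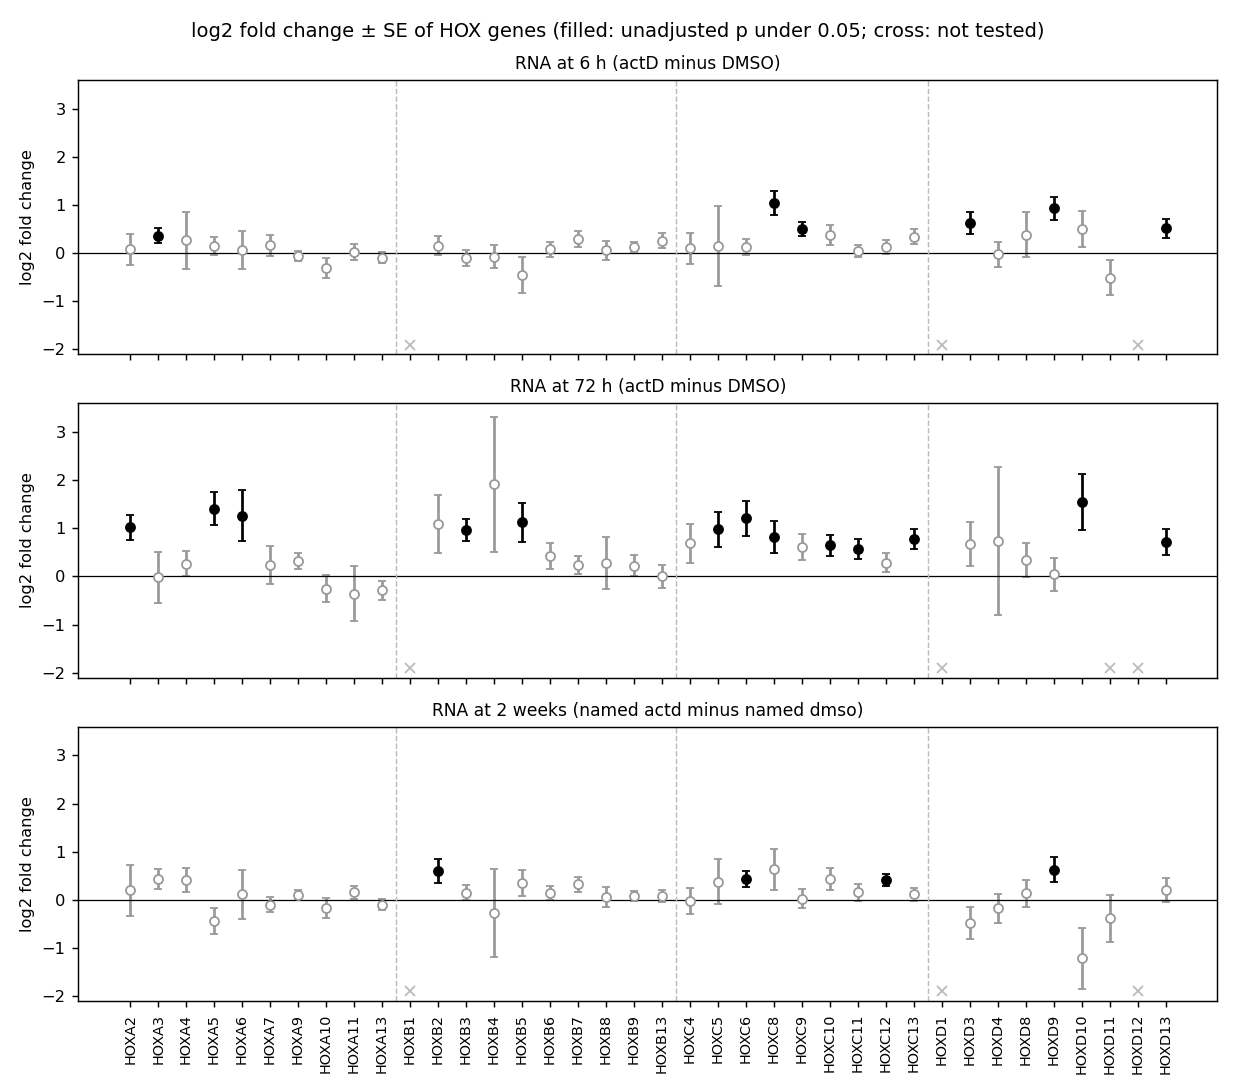
log2 fold change of 38 HOX genes in RNA at 6 h, 72 h and 2 weeks, by cluster and paralog group, with its standard error (filled points: unadjusted p under 0.05; crosses: not tested). At 72 h 30 of 34 points lie above 0, against 27 of 35 at 6 h and 25 of 35 at 2 weeks, and HOXA10, HOXA11 and HOXA13 lie below 0 at 72 h.

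HOXA5 had the largest log2 fold change among genes expressed at 72 h and under 0.05. HOXA5 was at 4.63, 4.88 and 8.66 CPM with actD and 1.95, 2.9 and 2.0 CPM with DMSO. HOXA2, which patterns the hindbrain and second pharyngeal arch, was at 1.75, 1.96 and 1.73 CPM with actD and 0.881, 0.929 and 0.869 CPM with DMSO. HOXB3 was at 16.9, 20.5 and 25.2 CPM with actD and 11.7, 11.6 and 8.79 CPM with DMSO. All actD libraries of the 3 genes lay above all DMSO libraries. Their log2 fold changes were 1.41 ± 0.34, 1.02 ± 0.27 and 0.97 ± 0.24 (SE), each with an adjusted p of 0.26 (edgeR). HOXA6 was at 1.67, 1.05 and 1.94 CPM with actD and 0.481, 1.17 and 0.304 CPM with DMSO, and HOXB5 at 1.14, 0.703 and 0.684 CPM with actD and 0.481, 0.442 and 0.246 CPM with DMSO. DMSO replicate 2 of HOXA6 reached into the actD values, and HOXB5 had no overlap (1.26 ± 0.53 and 1.13 ± 0.40, adjusted p 0.37 and 0.32, edgeR). HOXA6 had 2.00 without that DMSO library and 0.69 without both replicate 3 libraries.

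HOXC supplied 6 of the 13 genes. HOXC6, a thoracic gene, was at 20.0, 20.4 and 25.3 CPM with actD and 12.7, 11 and 4.75 CPM with DMSO. HOXC13 was at 19.1, 16.5 and 18 CPM with actD and 11.7, 9.62 and 9.91 CPM with DMSO. HOXC11, the HOX11 paralog expressed here beside HOXA11, was at 10.2, 10.4 and 10.3 CPM with actD and 7.88, 7.05 and 5.91 CPM with DMSO. No arms overlapped here, and the lowest HOXC6 value, DMSO replicate 3, lay well under the other DMSO values. Log2 fold changes were 1.21 ± 0.36, 0.78 ± 0.20 and 0.57 ± 0.21, with adjusted p of 0.28, 0.26 and 0.34 (edgeR), and HOXC6 had 0.76 without both replicate 3 libraries. HOXC10, a lumbar gene, was at 7.53, 6.97 and 7.74 CPM with actD and 4.51, 4.18 and 5.53 CPM with DMSO. HOXC8 was at 1.22, 1.59 and 1.24 CPM with actD and 0.614, 1.04 and 0.637 CPM with DMSO, and HOXC5 at 0.530, 0.407 and 0.684 CPM with actD and 0.214, 0.310 and 0.290 CPM with DMSO. These 3 had no overlap either, at 0.64 ± 0.23, 0.82 ± 0.33 and 0.98 ± 0.36 (adjusted p 0.32, 0.36 and 0.33, edgeR). HOXD13 was at 4.59, 5.01 and 4.97 CPM with actD and 2.62, 2.48 and 3.78 CPM with DMSO, and HOXD10, a lumbar motor neuron gene, at 0.255, 0.277 and 0.702 CPM with actD and 0.187, 0.177 and 0.0724 CPM with DMSO. Both were free of overlap, at 0.71 ± 0.27 and 1.55 ± 0.58 (adjusted p 0.34 and 0.34, edgeR). HOXD10 rests on low values, with actD replicate 3 the highest library. Its log2 fold change was 0.91 without that library and 0.54 without replicate 3 of both arms.

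**Figure D3:**
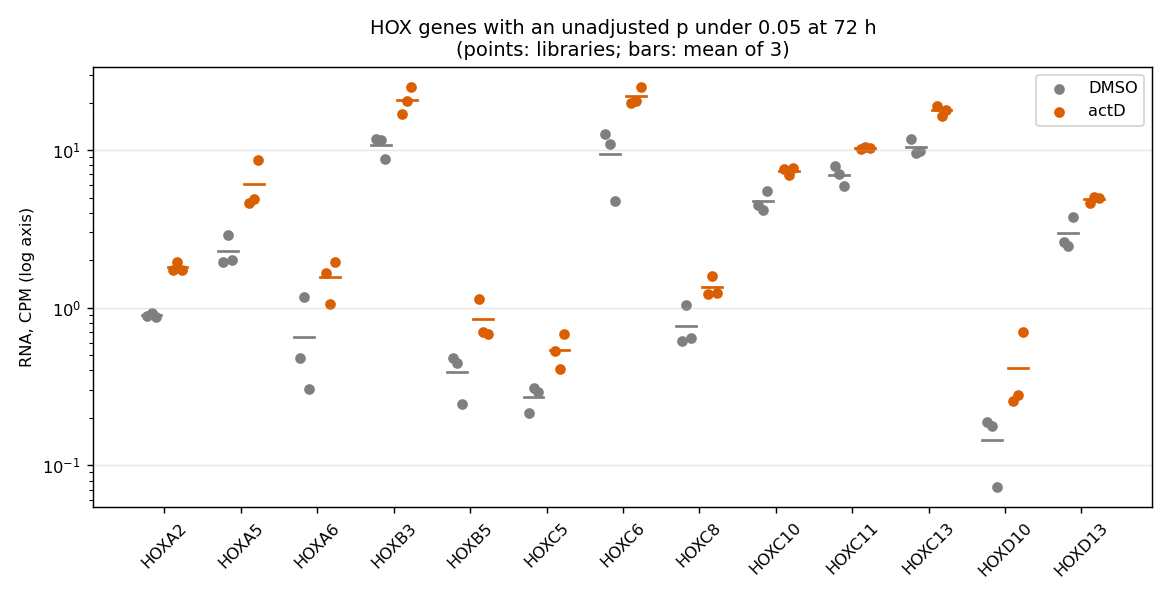
RNA of the 13 HOX genes with an unadjusted p under 0.05 at 72 h in each library, as CPM on a log axis (grey DMSO, orange actD; bars are means of 3 libraries). The arms are apart in all but HOXA6, where DMSO replicate 2 at 1.17 CPM exceeds actD replicate 2 at 1.05 CPM.

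Among the abundant posterior genes at 72 h, HOXA13 was at 105, 105.7 and 121 CPM with actD and 161, 114 and 129 CPM with DMSO. HOXA10 was at 31.2, 30.4 and 52.7 CPM with actD and 57.4, 39.8 and 38.8 CPM with DMSO. HOXA11 was at 14, 3.11 and 20.9 CPM with actD and 18.6, 16 and 14.2 CPM with DMSO. Arms overlapped in all 3, DMSO replicate 1 was the highest library for HOXA13 and HOXA10, and actD replicate 2 was far below the rest for HOXA11. Log2 fold changes were -0.29 ± 0.20, -0.25 ± 0.28 and -0.36 ± 0.57, with adjusted p of 0.58, 0.73 and 0.81 (edgeR). The sign of HOXA11 turned to 0.10 without actD replicate 2. With 1 library left out HOXA13 ran from -0.39 (without DMSO replicate 2) to -0.15 (without DMSO replicate 1) and HOXA10 from -0.56 (without actD replicate 3) to -0.06 (without DMSO replicate 1). HOXB13 was at 45.9, 44.9 and 33.5 CPM with actD and 48, 44.6 and 31.5 CPM with DMSO, and HOXB9 at 35.9, 38.1 and 54.2 CPM with actD and 38.1, 37.4 and 34.2 CPM with DMSO. HOXA9 was at 34.1, 34.8 and 33.2 CPM with actD and 27.2, 26.1 and 28.4 CPM with DMSO. HOXB13 and HOXB9 overlapped while HOXA9 did not, at 0.32 ± 0.17 (adjusted p 0.47, edgeR). HOXC12 was at 18.7, 19.9 and 17.9 CPM with actD and 17.2, 13.3 and 15.9 CPM with DMSO, and HOXC9 at 4.18, 3.94 and 3.06 CPM with actD and 2.86, 2.19 and 2.3 CPM with DMSO. HOXB7 was at 17.2, 17.5 and 18.2 CPM with actD and 16.2, 14.7 and 13.8 CPM with DMSO. These 3 had no overlap, with log2 fold changes of 0.28 ± 0.20, 0.61 ± 0.27 and 0.25 ± 0.19, and HOXC12 had 0.18 without DMSO replicate 2. Of the 35 genes, 16 had every actD library above every DMSO library, beside 10.5% of all genes, and none had the reverse, beside 10.3%.

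The remaining expressed genes were more scattered at 72 h. HOXB4 was at 2.0, 2.35 and 1.53 CPM with actD and 0, 1.57 and 0 CPM with DMSO, and HOXD4 at 1.92, 2.44 and 0 CPM with actD and 0.988, 1.66 and 0 CPM with DMSO. HOXB4 was listed at 0 in 2 DMSO libraries and HOXD4 in replicate 3 of both arms, and both share exon sequence with overlapping genes. Their fitted log2 fold changes (1.91 ± 1.41 and 0.74 ± 1.54) carry large errors, and that of HOXD4 ran from 0.12 (without DMSO replicate 3) to 1.63 (without DMSO replicate 2). HOXA3 was at 1.14, 4.86 and 1.62 CPM with actD and 2.72, 2.48 and 2.53 CPM with DMSO, and HOXA7 at 1.88, 4.81 and 4.56 CPM with actD and 2.94, 3.94 and 2.71 CPM with DMSO. HOXA4 was at 2.37, 2.55 and 2.0 CPM with actD and 2.16, 1.86 and 1.74 CPM with DMSO. Arms overlapped in all 3. HOXB2 was at 2.16, 0.777 and 3.37 CPM with actD and 0.427, 1.3 and 1.19 CPM with DMSO, HOXB6 at 4.02, 4.46 and 3.49 CPM with actD and 3.63, 2.52 and 2.71 CPM with DMSO. HOXB8 was at 1.14, 0.647 and 0.900 CPM with actD and 1.2, 0.774 and 0.261 CPM with DMSO. Their arms overlapped, with the largest of the 3 log2 fold changes for HOXB2 (1.10 ± 0.60; 0.58 without actD replicate 3). HOXC4 was at 1.57, 2.16 and 4.11 CPM with actD and 1.76, 1.3 and 1.78 CPM with DMSO. HOXD3 was at 1.39, 1.92 and 1.08 CPM with actD and 0.401, 1.24 and 1.1 CPM with DMSO, and HOXD8 at 1.65, 0.943 and 1.13 CPM with actD and 0.961, 0.708 and 1.26 CPM with DMSO. Arms overlapped here too, and actD replicate 3 of HOXC4 was far above the rest.

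Level and fold change were set side by side at 72 h. The 11 tested genes at a mean of 10 CPM or more had a median log2 fold change of 0.25 at 72 h (8 positive), and the 24 below 10 CPM a median of 0.70 (23 positive). Across the 35 genes Spearman's rho of level and log2 fold change was -0.47 at 72 h, -0.18 at 6 h (36 genes) and -0.04 at 2 weeks (36 genes), all genes sharing their libraries and the level being taken from the same libraries as the change. The same lean was seen over all protein-coding genes: the eighth with the lowest levels had a median of 0.23 at 72 h (62.8% positive), and the highest eighth -0.15 (33.3% positive). Gene length moved with it too. In the eighth with the shortest genomic spans (207 to 6586 bp), which holds 22 of the 35 HOX genes, the median was 0.12 with 60.4% positive, and in the longest eighth -0.35 with 22.9% positive. The part of level and length in the HOX values was not tested. Summed over all 39 HOX genes, RNA stood at 425, 425 and 505 CPM with actD and 465, 384 and 379 CPM with DMSO. These sums overlapped. With the 4 most abundant genes left out, the sums were 208, 206 and 244 CPM with actD and 160.5, 148 and 146 CPM with DMSO, without overlap. The HOXC sum was 83, 82.2 and 88.3 CPM with actD and 59.5, 50.0 and 47 CPM with DMSO, and the HOXA sum 205, 201 and 267 CPM with actD and 279.6, 213 and 232 CPM with DMSO. The HOXC sums did not overlap and the HOXA sums did. Nor did the HOXC sums overlap at 6 h (70.07, 77.9 and 87.6 CPM with actD, 64.9, 70.06 and 65.2 CPM with DMSO). The 2-week HOXC sum was 76.2, 84.7 and 77.8 CPM in libraries named actd and 62.9, 60.1 and 69.7 CPM in those named dmso. Again there was no overlap. The sums without the 4 most abundant genes did not overlap at 6 h or 2 weeks either. In bulk RNA, fewer cells of a kind and less RNA per cell cannot be told apart.

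Whether the effect at 72 h differed from that at 6 h was tested by the treatment-by-time interaction. Of 36 genes tested 27 had a larger effect at 72 h, beside 47.9% of all genes, and the median difference was 0.29. No HOX gene passed the test: 0 of 36 tested were called, beside 4 of 24251 genes in all (0.0165%), and DESeq2 also gave 0 HOX genes and 161 in all. At an unadjusted p under 0.05 stood 8, HOXA2, HOXA5, HOXB3, HOXB5, HOXC6, HOXC11 and HOXD11 with a larger effect at 72 h and HOXD9 with a smaller one, beside 2.84% and 5.18% of all genes. HOXB3 had the smallest p, with a difference in log2 fold change of 1.05 ± 0.29 (adjusted p 0.44, edgeR). HOXA5 differed by 1.25 ± 0.40 and HOXC6 by 1.07 ± 0.42, while HOXA13 differed by -0.21 ± 0.24 (-0.03 without DMSO replicate 1 of 72 h). Without DMSO replicate 2 of 72 h, HOXB4 was called, as 1 HOX gene beside 0.0316% of all genes, both DMSO libraries then left being at 0.

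At 2 weeks the named actd and named dmso libraries lay close together. Of 36 genes tested 26 had a positive log2 fold change, beside 46.8% of all 21137 genes, and the median was 0.14 beside -0.02 over all genes. Scaled to library totals, which moved the median of all genes by -0.15, 19 of the 36 were positive and the median was 0.00073. Grouped by title, 10 were positive and the median was -0.14. edgeR called 0 HOX genes and 0 genes in all (0%), DESeq2 0 and 189. At an unadjusted p under 0.05 stood 5 genes, all positive, beside 4% of all genes in that direction and 4.93% in the other. The 5 became 2 without named actd replicate 2, named actd replicate 3 or named dmso replicate 2, and 1 when scaled to library totals. Of the 36 genes 8 had every library named actd above every one named dmso, beside 7.86%, and 0 the reverse, beside 7.83%.

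HOXC12 was at 32.8, 34.4 and 31.4 CPM in the libraries named actd and 22.4, 24.1 and 27.6 CPM in those named dmso at 2 weeks. HOXC6 was at 11.7, 14.1 and 12.1 CPM in the libraries named actd and 10.1, 7.32 and 10.7 CPM in those named dmso. Neither gene had overlapping arms, at 0.41 ± 0.12 and 0.43 ± 0.17 (adjusted p 0.43 and 0.53, edgeR). Scaled to library totals HOXC12 had 0.27 and HOXC6 0.29, and HOXC6 also had 0.29 without named dmso replicate 2. HOXB2 was at 2.02, 2.16 and 2.59 CPM in the libraries named actd and 1.4, 1.17 and 1.88 CPM in those named dmso, and HOXD9 at 1.04, 1.08 and 1.0 CPM in the libraries named actd and 0.715, 0.662 and 0.641 CPM in those named dmso. Both were free of overlap, at 0.61 ± 0.25 and 0.63 ± 0.26 (adjusted p 0.54 and 0.54, edgeR). HOXD9 was also among the 7 genes under 0.05 at 6 h, and HOXC6 among the 13 at 72 h.

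The posterior genes were again the most abundant at 2 weeks. HOXB13 was at 127, 141 and 146 CPM in the libraries named actd and 114, 132 and 145 CPM in those named dmso. HOXA13 was at 96.7, 88 and 96.9 CPM in the libraries named actd and 92.1, 96.9 and 112 CPM in those named dmso. HOXB9 was at 68.8, 73.1 and 74 CPM in the libraries named actd and 64.8, 64.1 and 75.3 CPM in those named dmso. Arms overlapped in all 3, with log2 fold changes of 0.08, -0.10 and 0.08. Scaled to library totals HOXB13 and HOXB9 each had -0.07. HOXA10 was at 38.9, 27.6 and 44.1 CPM in the libraries named actd and 32.1, 42.8 and 49.4 CPM in those named dmso, HOXA11 at 12.2, 13.3 and 12.2 CPM in the libraries named actd and 10.2, 11.3 and 12.4 CPM in those named dmso. HOXA9 was at 19.7, 21.6 and 23.8 CPM in the libraries named actd and 20.0, 19.9 and 20.8 CPM in those named dmso, and HOXA7 at 5.33, 5.6 and 4.53 CPM in the libraries named actd and 5.24, 5.6 and 5.79 CPM in those named dmso. These 4 overlapped as well. HOXC13 was at 11.7, 12.8 and 11.8 CPM in the libraries named actd and 9.58, 11.4 and 12.5 CPM in those named dmso, and HOXC11 at 8.69, 12 and 10.1 CPM in the libraries named actd and 11, 8.43 and 8.18 CPM in those named dmso. HOXC10 was at 5.03, 5.9 and 5.94 CPM in the libraries named actd and 4.19, 2.93 and 5.3 CPM in those named dmso, and HOXC9 at 3.21, 2.86 and 3.37 CPM in the libraries named actd and 2.88, 3.63 and 2.74 CPM in those named dmso. HOXD13 was at 1.99, 1.94 and 2.5 CPM in the libraries named actd and 1.41, 1.8 and 2.35 CPM in those named dmso. Overlap was present in each of these 5.

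Of the anterior and central genes at 2 weeks, HOXA3 was at 2.21, 2.76 and 2.62 CPM in the libraries named actd and 2.08, 1.59 and 1.94 CPM in those named dmso. HOXA4 was at 1.34, 1.13 and 1.39 CPM in the libraries named actd and 1.06, 0.813 and 1.01 CPM in those named dmso, and HOXA5 at 0.984, 1.19 and 0.751 CPM in the libraries named actd and 1.17, 1.46 and 1.34 CPM in those named dmso. HOXA3 and HOXA4 had no overlap, and HOXA5, with the largest positive value of these at 72 h, had a log2 fold change of -0.44 ± 0.27 at 2 weeks (adjusted p 0.67, edgeR), or -0.27 without named actd replicate 3. HOXB3 was at 14.9, 21.1 and 15.1 CPM in the libraries named actd and 15.3, 15.5 and 15.1 CPM in those named dmso, and HOXB4 at 0.0371, 3.16 and 2.55 CPM in the libraries named actd and 2.43, 2.74 and 1.79 CPM in those named dmso. HOXB6 was at 6.89, 7.51 and 6.1 CPM in the libraries named actd and 5.76, 5.96 and 6.82 CPM in those named dmso, and HOXB7 at 15.4, 17.3 and 17.9 CPM in the libraries named actd and 12.1, 11.9 and 16.5 CPM in those named dmso. HOXB8 was at 3.45, 3.72 and 3.25 CPM in the libraries named actd and 3.89, 2.51 and 3.57 CPM in those named dmso. These 5 overlapped, and HOXB4 was near 0 in 1 library named actd. HOXC4 was at 1.63, 1.27 and 2.18 CPM in the libraries named actd and 1.47, 1.65 and 2.02 CPM in those named dmso, and HOXD3 at 1.39, 1.82 and 1.07 CPM in the libraries named actd and 2.2, 2.55 and 1.24 CPM in those named dmso. HOXD4 was at 2.8, 3.0 and 2.14 CPM in the libraries named actd and 4.42, 2.5 and 2.08 CPM in those named dmso, and HOXD8 at 2.47, 2.25 and 1.48 CPM in the libraries named actd and 1.64, 1.59 and 2.43 CPM in those named dmso. Overlap was present in these 4 too.

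Beside the HOX genes the clusters hold 62 other annotated genes, among them antisense, long noncoding and microRNA genes. At 72 h 37 of the 62 passed the filter, with a median log2 fold change of 0.58. Of these 34 were positive, beside 51.4% of all genes. Under an unadjusted p of 0.05 stood 7 on the positive side and 1 on the negative, beside 5.27% and 7.78%. edgeR called none of the 37, beside 0.00472% of all genes. DESeq2 called 1 of 37, AC012531.1, beside 2.87% of all genes. The single fit over all RNA libraries called 2 of 42, AC012531.1 and HOXA10-AS, beside 4.89%. AC012531.1, a long intergenic RNA beside HOXC5, was at 7.18, 7.75 and 4.41 CPM with actD and 1.25, 2.87 and 1.3 CPM with DMSO. HOXA10-AS, antisense to HOXA10 and HOXA9, was at 2.16, 4.72 and 4.99 CPM with actD and 1.23, 2.41 and 1.46 CPM with DMSO. The arms of AC012531.1 did not overlap and those of HOXA10-AS did, at 1.83 ± 0.42 and 1.22 ± 0.42 (adjusted p 0.24 and 0.32, edgeR). The adjusted p of AC012531.1 was 0.0027 with DESeq2 and 0.021 in the single fit, and that of HOXA10-AS 0.12 and 0.019. HOXA10-AS without single libraries or under other settings ranged from 0.89 to 1.55. On the negative side were the pseudogene RPL9P28 (-1.56 ± 0.46) and the prostate and colon transcript PRAC1 (-0.63 ± 0.34), both in the long gap between HOXB9 and HOXB13. Without DMSO replicate 3 they had -1.01 and -0.17. At 6 h 19 of 36 tested were positive (median 0.09), beside 53% of all genes, and at 2 weeks 11 of 34 (median -0.15), beside 46.8%.

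The long noncoding RNAs that act at HOX genes varied between libraries. HOTTIP, at the HOXA13 end of HOXA, was at 2.81, 4.57 and 1.96 CPM with actD and 2.35, 3.34 and 1.35 CPM with DMSO at 72 h. HOTAIR, in HOXC, was at 3.59, 4.12 and 19.4 CPM with actD and 13.8, 3.12 and 3.78 CPM with DMSO. HOXA11-AS was at 5.87, 6.68 and 9.94 CPM with actD and 7.16, 7.56 and 3.3 CPM with DMSO. None of these had arms apart, and HOTAIR differed more between libraries of 1 arm than between arms. HOTAIR was at 11.4, 2.59 and 16.7 CPM with actD and 9.2, 2.93 and 14.9 CPM with DMSO at 6 h and 7.86, 8.27 and 6.53 CPM in the libraries named actd and 35.6, 6.05 and 31.4 CPM in those named dmso at 2 weeks. HOXA-AS2 was at 5.63, 9.6 and 5.15 CPM with actD and 4.38, 4.45 and 3.69 CPM with DMSO, without overlap, and HOXB-AS3 at 4.49, 5.01 and 7.29 CPM with actD and 4.57, 4.18 and 1.19 CPM with DMSO. PRAC2 was at 9.55, 9.54 and 10.0 CPM with actD and 8.38, 6.68 and 3.69 CPM with DMSO and AC004080.2 at 1.55, 1.54 and 1.58 CPM with actD and 2.0, 1.9 and 1.59 CPM with DMSO, the first with every actD library above DMSO and the second with every one below. HOTAIRM1, a myeloid RNA in HOXA, was at 1.69, 1.55 and 2.21 CPM with actD and 1.07, 1.22 and 0.869 CPM with DMSO (0.79 ± 0.30, adjusted p 0.34, edgeR). Its arms did not overlap. The other noncoding genes expressed in a table lay between 0.391 CPM (AC103702.1) and 11.7 CPM (AC103702.2) in single libraries at 72 h. Among 24 protein-coding genes flanking the clusters, 23 were tested at 72 h, with a median log2 fold change of -0.15. Of these 4 were positive, beside 51.4% of all genes. Under an unadjusted p of 0.05 stood 0 on the positive side and 2 on the negative, beside 5.27% and 7.78%. edgeR called none of the 23, and DESeq2 and the single fit over all RNA libraries called HNRNPA1 alone. That was 1 of 23 and 1 of 24 tested, beside 2.87% and 4.89% of all genes. HNRNPA1, an RNA-binding protein gene beside HOXC, was at 309, 279 and 234 CPM with actD and 526, 459.5 and 469 CPM with DMSO, a log2 fold change of -0.82 ± 0.20 (adjusted p 0.26 with edgeR, 0.011 with DESeq2 and 0.0086 in the single fit). CALCOCO2, an autophagy receptor gene, had -0.80 ± 0.30, or -0.39 without DMSO replicate 3. On the positive side CBX5, which encodes the heterochromatin protein HP1 alpha, had 0.34 ± 0.20. EVX1, the homeobox gene next to HOXA13, had 0.55 ± 0.33, or 0.36 without actD replicate 1. At 6 h 16 of 24 flanking genes were positive, beside 53% of all genes, and at 2 weeks 12 of 23, beside 46.8%. Over all protein-coding genes at 72 h, 62.8% were positive in the lowest eighth of level, 33.3% in the highest and 22.9% among the longest. HNRNPA1 and CBX5 (means of 1044 CPM with actD and 823 CPM with DMSO) lay in the highest eighth, while EVX1 was low (1.61 and 1.11 CPM). Inside genes such as HOXA10-AS cover HOX exons on the other strand, so their counts may not be separate. The part of level, length and shared exons was not tested.

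**Figure D4:**
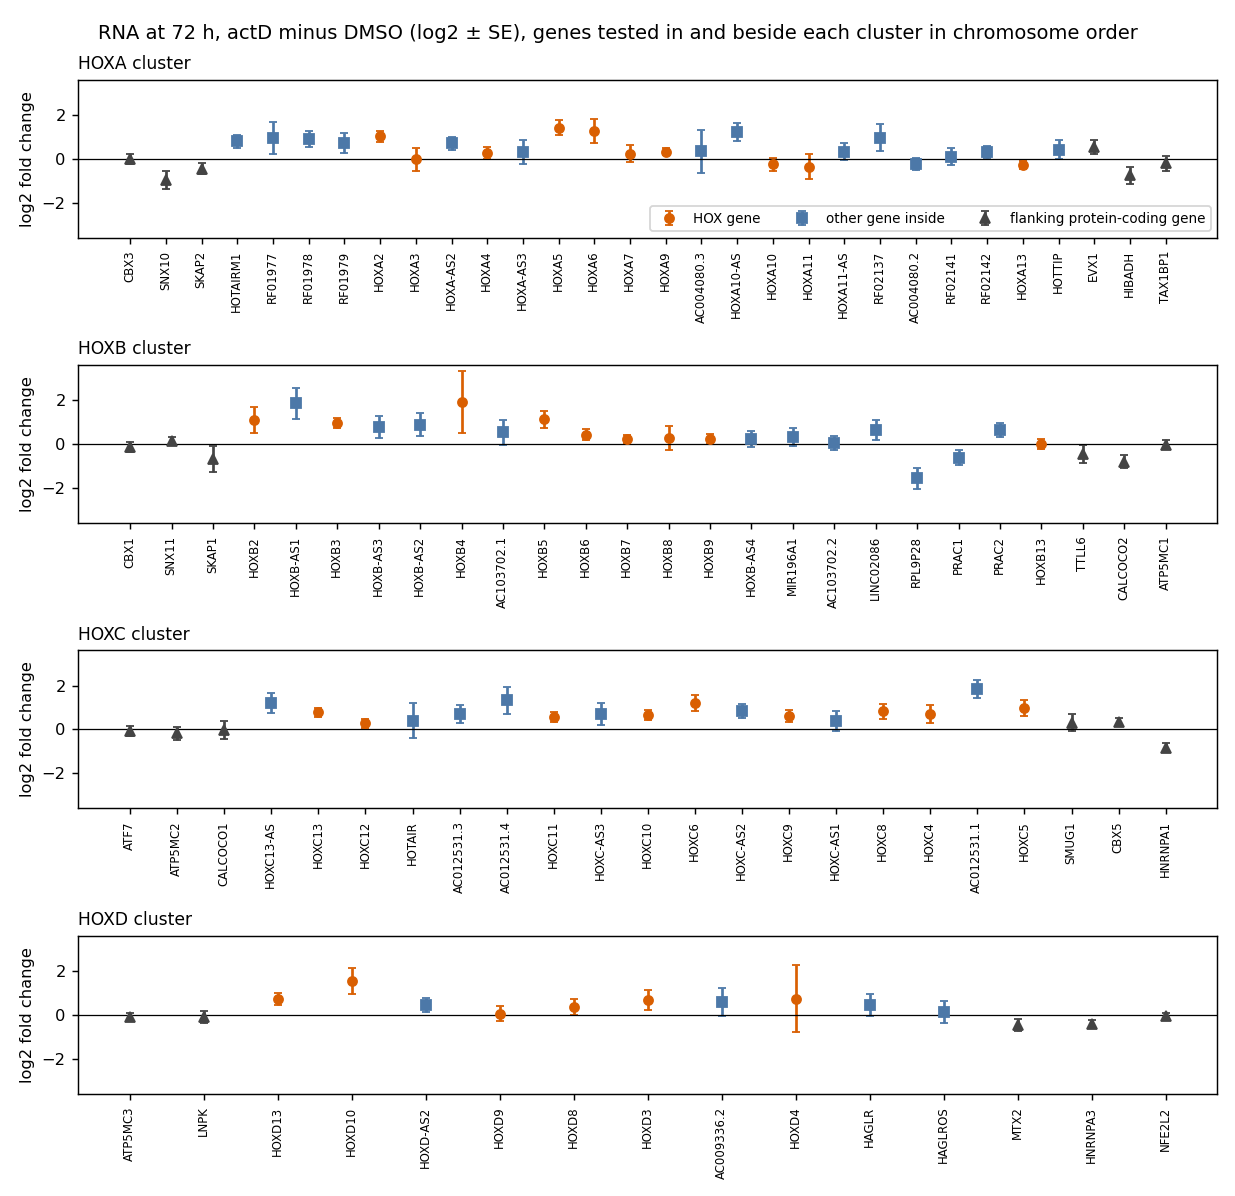
log2 fold change with its standard error at 72 h of tested genes in and beside the clusters, in chromosome order with even spacing (orange circles HOX genes, blue squares other genes inside, grey triangles the 3 nearest protein-coding genes on each side). Inside the clusters 30 of the 34 HOX genes drawn and 34 of 37 others lie above 0, and 4 of 23 flanking genes do. The sets were not tested against each other, nor was the part of gene level and length in them.

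Genes that regulate or work with HOX proteins, and metanephric genes, were not called in RNA at any time by edgeR fitted to each time's own libraries, with all of them in. At 72 h 6 of the 89 tested stood under an unadjusted p of 0.05 on the positive side and 7 on the negative. The shares of all genes were 5.27% and 7.78%. At 6 h the counts were 4 and 6 of 89, beside 3.67% and 4.54%, and at 2 weeks 1 and 8 of 89, beside 4% and 4.93%. DESeq2 called PKNOX2, JARID2 and RXRA at 6 h (beside 0.869% of all genes), PSIP1, RBBP7 and RXRA at 72 h (beside 2.87%), and ALDH1A1 at 2 weeks (beside 0.894%). The single fit over all RNA libraries called 0 of 92 tested at 6 h and 7 of 92 at 72 h, beside 4.89% of all genes at 72 h. The 7 were FOXD1, JARID2, MEIS3, PSIP1, RBBP7, RXRA and RXRB.

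Of 9 PBX, MEIS and PKNOX cofactors 4 were positive at 72 h (median -0.09). MEIS3 had 0.49 ± 0.20 and PBX3 0.29 ± 0.50, and on the negative side PKNOX2 had -0.88 ± 0.55 and MEIS2 -0.31 ± 0.25. With 1 library left out PKNOX2 ran from -1.80 (without actD replicate 3) to -0.54 (without actD replicate 1), MEIS2 from -0.61 (without actD replicate 3) to -0.17 (without actD replicate 1), and PBX3 from -0.02 (without DMSO replicate 2) to 0.89 (without DMSO replicate 1). The sign of PBX3 turned without DMSO replicate 2. Of 24 Polycomb genes 10 were positive (median -0.08). BMI1, a ring-finger subunit of the complex that ubiquitinates histone H2A, had 0.89 ± 0.35 and PHC2, of the same complex family, 0.45 ± 0.18. RBBP7, a histone-binding subunit, had -0.81 ± 0.22 and JARID2, which recruits the methylating complex, -0.79 ± 0.27. Without both replicate 3 libraries at 72 h, a fit added after the values were seen, edgeR called JARID2 (-1.19, adjusted p = 0.047). How many of all genes that fit called is not given here. The adjusted p of RBBP7 was 0.27 with edgeR and 0.042 with DESeq2.

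Of 20 Trithorax and MLL genes 7 were positive (median -0.16). PSIP1, the chromatin tether of MLL and menin, had -0.76 ± 0.18 (adjusted p 0.24 with edgeR and 0.011 with DESeq2), and the MLL complex subunit ASH2L -0.40 ± 0.17. On the positive side the demethylase gene KDM6B had 0.34 ± 0.25 and the methyltransferase gene KMT2D 0.37 ± 0.34, which became 0.22 and 0.12 without DMSO replicate 3. Of 19 tested upstream and retinoid genes 8 were positive (median -0.17). The retinoid X receptors RXRA and RXRB had -0.80 ± 0.19 and -0.54 ± 0.21, the homeobox gene GBX2 1.18 ± 0.37 and the retinoic acid receptor RARA 0.38 ± 0.21. The adjusted p of RXRA was 0.26 with edgeR and 0.015 with DESeq2. Of 17 tested metanephric genes 13 were positive (median 0.38). SALL1, a nephron progenitor factor, had 1.46 ± 0.49 and the stroma factor FOXD1 0.61 ± 0.21. SALL1 was low, at a mean of 0.61 CPM with actD and 0.23 CPM with DMSO, as was GBX2 (1.10 and 0.49 CPM). WT1, the Wilms tumor suppressor gene, had -0.64 ± 0.33 and ITGA8 -1.02 ± 0.55. With 1 library left out WT1 ran from -1.06 (without actD replicate 3) to -0.42 (without actD replicate 1) and ITGA8 from -1.76 (without actD replicate 3) to -0.60 (without DMSO replicate 3). At 6 h the same lists had 4 of 9, 16 of 24, 6 of 20, 8 of 19 and 13 of 17 positive, and at 2 weeks 3 of 9, 9 of 24, 4 of 20, 10 of 21 and 9 of 15. Of all genes 51.4% were positive at 72 h, 53% at 6 h and 46.8% at 2 weeks.

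The clusters also encode microRNAs, and short RNA fragments of the footprint libraries fell on them. MIR10A lies beside HOXB4, MIR10B beside HOXD4, MIR196B beside HOXA9, MIR196A1 beside HOXB9, MIR196A2 in the posterior part of HOXC and MIR615 in HOXC. The mature sequences that follow (RefSeq, GRCh38.p14) show which of these can be counted apart, with the seed (bases 2 to 8 from the 5′ end) in capitals.
miR-10a-5p: uACCCUGUagauccgaauuugug
miR-196a-5p: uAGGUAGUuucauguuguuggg
miR-196b-5p: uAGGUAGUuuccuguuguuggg
miR-615-3p: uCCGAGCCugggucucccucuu
miR-196a-5p is the same from MIR196A1 and MIR196A2, so counts of that strand cannot be assigned to either gene, and miR-196b-5p shares its seed and differs by A12C (positions from 1 at the 5′ end). At 6 h MIR10B held 28993, 9045 and 1526 counts with actD and 178, 8842 and 8337 with DMSO, and MIR10A 12999, 3896 and 767 with actD and 94, 4363 and 3707 with DMSO. Both varied widely within each arm, and the arms overlapped. All microRNA genes together took 4.67% to 71.4% of the counts of a 6 h library. Their share was 1.18% to 5.89% in 72 h libraries, and 1.87% to 8.65% in those of 2 weeks. Among microRNA counts alone, MIR10B took 0.798% to 3.53% (6 h), 0.0890% to 3.24% (72 h) and 0.411% to 1.74% (2 weeks).

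MIR10B exceeded MIR10A in every footprint library, by 1.89 to 2.32 times (6 h), 1.79 to 4.03 times (72 h) and 2.56 to 4.62 times (2 weeks). The miR-10b-5p sequence is not given here, so how far counts of MIR10A and MIR10B can be told apart was not checked. At 72 h MIR10B held 64, 25 and 629 counts with actD and 15, 9 and 8 with DMSO. Most of the counts were in actD replicate 3. As CPM the arms overlapped, with DMSO replicate 3, the shallowest library, at 99.5, and the test gave a log2 fold change of 2.68 ± 1.04 (adjusted p 0.15, edgeR). The exact two-sided permutation test of its share of microRNA counts gave p = 0.2 at 72 h, where 3 against 3 libraries cannot go below 0.1. MIR196B held 1977, 246 and 71 counts with actD and 0, 875 and 276 with DMSO at 6 h, and 0 to 2 counts per library at 72 h. MIR196A1 held 479, 43 and 17 with actD and 3, 210 and 43 with DMSO at 6 h, and MIR196A2 451, 41 and 17 with actD and 2, 179 and 38 with DMSO. MIR615 held 153, 54 and 13 counts with actD and 2, 46 and 118 with DMSO. In RNA libraries MIR10A held at most 1 count and MIR10B at most 12.

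Ribosome footprints on HOX genes were few. All 6 libraries of a table together held 221 HOX footprints at 6 h, 496 at 72 h and 320 at 2 weeks, on 21, 26 and 25 genes. Spearman's rho of summed RNA and footprint counts over the 39 genes was 0.733, 0.811 and 0.743. Genes with a footprint in every library were HOXA10 alone at 6 h, HOXA9, HOXA10 and HOXA13 at 72 h, and HOXA10, HOXA13, HOXB6, HOXB9, HOXB13 and HOXC12 at 2 weeks. HOXA13 held 29%, 23% and 24.4% of HOX footprints at 6 h, 72 h and 2 weeks. No footprint in any table fell on 8 genes: HOXA4, HOXA5, HOXA6, HOXB1, HOXB8, HOXD3, HOXD10 and HOXD12. At this depth a 0 allows up to 3 counts, or 2.70 to 37.3 CPM over the footprint libraries, so their translation was not detectable rather than absent.

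The filter was passed by HOXA10 and HOXA13 at 72 h, HOXA13 and HOXB13 at 2 weeks, and no HOX gene at 6 h. HOXA13 held 25, 9 and 40 counts with actD and 24, 15 and 1 with DMSO at 72 h and 16, 13 and 16 counts with actD and 9, 17 and 7 with DMSO at 2 weeks, which is 37.3, 24.5 and 47.6 CPM with actD and 54.3, 50.3 and 12.4 CPM with DMSO and then 18.2, 14.8 and 23.3 CPM with actD and 13.9, 15.3 and 10.6 CPM with DMSO. Arms overlapped both times, with log2 fold changes of -0.26 ± 0.44 and 0.45 ± 0.29 (adjusted p 0.72 and 0.66, edgeR). Without single libraries the 72 h value ran from -0.45 (without DMSO replicate 3) to -0.00 (without actD replicate 2). HOXB13 held 11, 15 and 7 counts with actD and 8, 12 and 7 with DMSO at 2 weeks, again with overlap (0.26 ± 0.33, adjusted p 0.81, edgeR), and the sign turned to -0.02 without actD replicate 2. HOXA10 held 8, 4 and 25 counts with actD and 12, 9 and 2 with DMSO at 72 h (11.9, 10.9 and 29.7 CPM with actD and 27.1, 30.2 and 24.9 CPM with DMSO), and its arms overlapped (-0.58 ± 0.50, adjusted p 0.47, edgeR), with -1.17 (without actD replicate 3) to -0.28 (without actD replicate 1) when 1 library was left out. None was called by edgeR or DESeq2. Over all genes edgeR called 0 of 1212 at 6 h (0%), 92 of 2426 at 72 h (3.79%) and 0 of 1598 at 2 weeks (0%), and at an unadjusted p under 0.05 stood 0 HOX genes beside 3.14%, 27.3% and 8.57% of all genes.

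HOXC footprints at 72 h, summed over the cluster, stood at 53.8, 46.2 and 65.4 CPM with actD and 20.4, 16.8 and 12.4 CPM with DMSO. All 3 actD libraries lay above the DMSO libraries, as in the RNA, but DMSO replicate 3 held 1 HOXC footprint. The HOXC sums were also apart at 2 weeks (14.8, 13.7 and 18.9 CPM with actD, 9.29, 8.1 and 7.55 CPM with DMSO). At 6 h the HOXC sums overlapped. Of the 26 HOX genes with a footprint at 72 h, HOXB3, HOXB9, HOXC11 and HOXC13 had every actD library above DMSO, beside 11.2% of all 13813 genes with a footprint in the table, and none below, beside 6.44%. HOXB3 held footprints in 3 libraries, HOXC13 in 4, and HOXB9 and HOXC11 in 5, so each had a DMSO value of 0. DMSO replicate 3, the shallowest library, held 0 HOXB footprints, and a 0 there allows up to 37.3 CPM. None of these 4 genes passed the filter on low counts, so none was tested. By the same count at 6 h HOXA10 had every actD library below DMSO, beside 2.51%, and no gene above, beside 1.96%. At 2 weeks HOXA10 and HOXC6 had every actD library above DMSO, beside 3.77%, and no gene below, beside 3.92%. Summed HOXA footprints stood at 64.2, 54.4 and 96.4 CPM with actD and 88.2, 97.2 and 62.2 CPM with DMSO and overlapped. The 6 h footprint libraries were the most uneven, with HOX sums of 51.7, 7.94 and 62.9 CPM with actD and 82.6, 77.9 and 63 CPM with DMSO, and actD replicate 2 held 3 HOX footprints in all. No cluster sum was tested. Translational efficiency, the footprint-to-RNA ratio tested as an interaction, could be given for the same genes. It differed by -0.48 ± 0.54 for HOXA10 and -0.13 ± 0.47 for HOXA13 at 72 h, and by 0.49 ± 0.27 for HOXA13 and 0.12 ± 0.30 for HOXB13 at 2 weeks (log2, SE, groups by library name in the RNA). The sign turned without footprint actD replicate 2 for HOXA13 at 72 h (0.10) and for HOXB13 (-0.11). None was called, beside 0.433% of 2311 genes at 72 h, 0% of 1441 at 2 weeks and 0% of 951 at 6 h, and 0 HOX genes stood under an unadjusted p of 0.05, beside 14.9%, 5.14% and 5.26% of all genes.

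**Figure D5:**
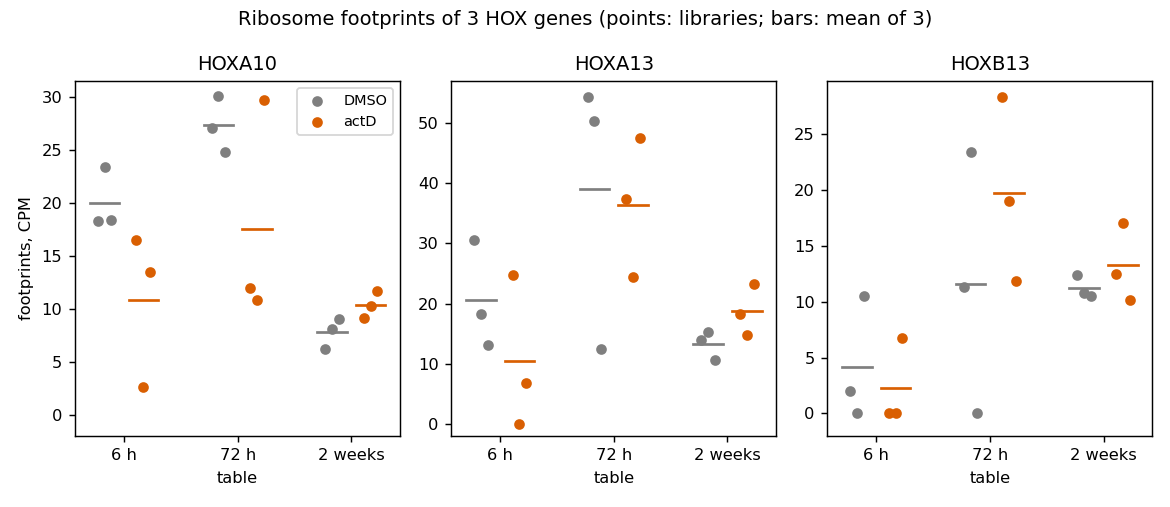
Footprints of HOXA10, HOXA13 and HOXB13 in each library, as CPM (grey DMSO, orange actD; bars are means of 3 libraries). The arms of HOXA10 are apart at 6 h and at 2 weeks in opposite directions, and those of HOXA13 and HOXB13 overlap in every table.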

How the data were processed

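The deposited tables hold estimated counts per gene, given as whole numbers, 1 table for each assay and time point. Per the submitters' processing notes HISAT2, StringTie and hg38 were used; their role, versions, the annotation, any filter and the use of strand are not given in the sources used here. The RNA was extracted with either of 2 kits and libraries made with either of 2 kits, per the labels' protocols, and which library used which is not given in the sources used here. All 36 value columns were mapped to samples by name and 0 were left out. Gene IDs were matched to GENCODE v29 without their version (99.4% of 58219).

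Each table was tested with edgeR 4.0.16 (R 4.3.3; limma 3.58.1): filterByExpr, TMM scaling, quasi-likelihood test, two-sided, Benjamini-Hochberg adjustment over all genes tested, called at an adjusted p under 0.05. Translational efficiency was the assay-by-treatment interaction over the 12 libraries of a time point, and the change of effect from 6 h to 72 h the treatment-by-time interaction over 12 RNA libraries. DESeq2 1.42.0, other scalings, no filter, the replicate number as a block, a fit over 18 libraries and leaving out each library were alternatives. For translational efficiency only the block and leaving out each library were run. For the change of effect from 6 h to 72 h these and DESeq2 were run. The fits were tested on simulated data. No 2 of the 18 RNA libraries, and no 2 of the 18 footprint libraries, were identical or within sampling noise (chi-square per degree of freedom at least 27.5 and 7.39).

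HOX genes expressed in a table were given in every library, with a fold change where an unadjusted p was under 0.05 in a comparison; of the other lists (HOX cofactors, Polycomb, Trithorax and MLL, upstream and retinoid, metanephric, inside and flanking the clusters), the 2 genes with the smallest p at 72 h in each direction stood for the rest. The values of 1 HOX gene are not reported here; it stays in all counts, shares and medians. Members and lists were chosen with earlier results of these data known.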

Additional observations from a re-analysis of the deposited data

Results flagged for a closer look

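As TMM-scaled CPM, HOXA10 footprints went opposite ways at 6 h and 2 weeks. At 6 h HOXA10 held 8, 1 and 6 counts with actD and 18, 18 and 7 with DMSO (16.5, 2.65 and 13.5 CPM with actD and 18.4, 23.4 and 18.4 CPM with DMSO), and every actD library lay below every DMSO library, with a log2 ratio of mean CPM of -0.88. The ratio was -0.42 without actD replicate 2, which held 1 of these counts and 3 HOX footprints in all, and -1.31 without actD replicate 1. At 2 weeks it held 8, 9 and 8 counts with actD and 4, 9 and 6 with DMSO (9.11, 10.3 and 11.7 CPM with actD and 6.19, 8.1 and 9.06 CPM with DMSO), and every actD library lay above every DMSO library, with a log2 ratio of 0.41 (0.27 without DMSO replicate 1). The difference between the times was not tested. Among genes with a footprint in the table, 2.51% had actD below DMSO without overlap at 6 h and 3.77% had actD above it at 2 weeks. Relative to each library's protein-coding counts, the arms overlapped at both times. At 6 h actD replicate 1 held 8 among 27153, a larger share than the 18 among 94447 of DMSO replicate 1. At 2 weeks actD replicate 1 held 8 among 69106, a smaller share than the 6 among 50343 of DMSO replicate 3. HOXA10 did not pass the filter on low counts in either table. HOXA10 RNA overlapped between the arms at both times.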

How the results depend on the processing

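Of 57 HOX gene fold changes given by value or by direction, the sign held in 705 of 726 alternatives. These did not include translational efficiency at 2 weeks with the RNA libraries grouped by title. Of the 21 exceptions, 8 came from grouping the 2-week RNA libraries by title: HOXB2 -0.61, HOXC6 -0.43, HOXC12 -0.41, HOXD9 -0.63, HOXB13 -0.082, HOXB9 -0.080, HOXA13 0.10 and HOXA5 0.44. The other 13 were as follows. In RNA at 2 weeks library totals gave HOXB13 -0.070 and HOXB9 -0.071. At 72 h HOXA3 had 0.18 with protein-coding totals and 0.19 without both replicate 3 libraries. With 1 library left out HOXA3 at 72 h ran from -0.90 to 0.31 (0.22 without actD replicate 3), HOXA11 at 72 h from -0.93 to 0.10, HOXC11 at 6 h from -0.0039 to 0.072 and HOXB13 at 2 weeks from -0.0050 to 0.17. HOXB13 footprints at 2 weeks ran from -0.016 to 0.37, and translational efficiency from -0.11 to 0.28 for HOXB13 at 2 weeks and from -0.36 to 0.10 for HOXA13 at 72 h (0.04 without footprint DMSO replicate 1). Grouping by title also gave 10 positive genes and a median of -0.14, and library totals a 2-week median of 0.00073. At 72 h the HOX genes called were 4 with DESeq2 and 5 with a single fit over all RNA libraries, and protein-coding totals gave a median of 0.82 while moving that of all genes by 0.18. Leaving out single libraries, HOX medians ran from 0.12 to 0.15 at 6 h, 0.56 (without DMSO replicate 2) to 0.65 at 72 h and 0.09 (without named actd replicate 2) to 0.18 at 2 weeks. Positive genes numbered 25 to 28, 30 to 33 and 24 to 28 in that order, HOX calls stayed at 0 in RNA, footprints and translational efficiency, and the interaction gave 0 to 1 (1 without DMSO replicate 2 of 72 h). PBX3 ran from -0.023 (without that library) to 0.89. With at least 3 footprints required in each library, 0, 0 and 3 genes were detected at 6 h, 72 h and 2 weeks.

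Replicate numbers did not pair the libraries by the correlation of their deviations (RNA 0.083, 0.21 and 0.14 at 72 h, -0.066, -0.020 and -0.12 at 6 h, 0.082, 0.0095 and 0.16 at 2 weeks), although at 72 h each library matched its own number best. With the replicate number as a block, 0 HOX genes were called at any time, in RNA, footprints or translational efficiency, and the interaction gave 0.

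Counting at 0.5 CPM or 2 CPM gave 32 and 23 expressed genes at 6 h, 25 and 17 at 72 h, and 29 and 19 at 2 weeks. Depth limits the footprints: a HOX gene with few reads cannot be tested there.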
